A study of Saccharomyces cerevisiae with 160 samples.

Results

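The genes described are those of trehalose and glycogen metabolism in budding yeast, *TPS1*, *TPS2*, *TSL1*, *NTH1*, *PGM2*, *GSY1*, *GSY2*, *GPH1*, *GLC3* and *GDB1*. They were chosen by name, and the probe-to-gene table of the array gave 1 probe set for each, so that 10 of the 5716 yeast probe sets are members. Transcript levels were measured on 160 arrays from 9 time courses of 5 strains, all BF264-15DU *MATa*, released as synchronous small G1 cells after elutriation and then followed into a cell-cycle arrest. The *cdc20* strain (2 cultures) was *bar1*, had *CDC20* deleted with *LEU2* and carried a Pgall-CDC20 copy marked with *ADE2* and CFP-TUB1 marked with *URA3*. It was held in YEP-dextrose with 1 M sorbitol at 30 °C, where the *GAL* promoter is shut off and loss of Cdc20 stops cells at metaphase. The *cdc8* strain (2 cultures) carried the temperature-sensitive allele *cdc8*-ts of thymidylate kinase and was given in the labels with the same medium and temperature. The study's supplement calls 30 °C the restrictive temperature, into which *cdc8*-ts cells were released. Loss of Cdc8 stalls replication forks and triggers the DNA replication checkpoint. The *cse4-353* strain (2 cultures) was *bar1*, carried CFP-TUB1 and overexpressed a mutant of the centromeric histone from Pgal-cse4-353 (*TRP1*) in YEP-galactose with 1 M sorbitol at 30 °C, which triggers the spindle assembly checkpoint. The *cdc8 cdc20* strain (1 culture) joined *cdc8*-ts to the *bar1*, *cdc20*, Pgall-CDC20 and CFP-TUB1 alleles, and the *rad53-1 cdc8 cdc20* strain (2 cultures) carried *rad53-1*, a mutant of the checkpoint effector kinase, in addition. The labels give no medium for these last strains, which the study's methods place in dextrose.

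Trehalose and glycogen are the reserve carbohydrates of yeast. Both are built from glucose 6-phosphate by way of UDP-glucose, which phosphoglucomutase helps to supply, and both accumulate when growth slows, when nutrients run short or under stress. In rich glucose medium many genes of the pathway are held low by protein kinase A, and they are induced by the general stress activators Msn2 and Msn4 when that kinase is less active. The genes for making and for degrading the reserves are often transcribed together, and flux is then set largely by the enzymes themselves.

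The cultures were sampled on different clocks, with 14 and 18 arrays from 40 to 300 and 20 to 360 min in *cdc20*, 16 each from 30 to 260 min in *cdc8*, 18 each from 90 to 345 min in *cse4-353*, and 20 each from 18 to 360 min in the other strains. For the last array of both *cse4-353* cultures the labels disagree, and the time in the source name, 345 min, was used over the earlier one in the title; this array lies in no window. For each culture, the arrest level of a gene was its mean log2 intensity over a late stretch of the course, 200 to 280 min in *cdc20*, 180 to 260 min in *cdc8*, 255 to 330 min in *cse4-353* and 198 to 288 min in the others. The early level was the same mean over 40 to 80, 50 to 80, 90 to 120 and 36 to 72 min, respectively, and its difference from the arrest level is called the change. Levels are given below as intensities transformed back from these means. A difference was called at an adjusted p of at most 0.05 in limma, fitted on 1 value per culture over all 5716 probe sets. The culture is thus the replicate, and *cdc8 cdc20* has a single one, which was assumed to vary like the others. Strain, medium and sampling clock changed together, and the temperature before release may have differed too. Their parts in a difference between strains cannot be told apart.

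*CSE4*, *BAR1* and *GAL1* followed the strain labels. *CDC20* was checked too and did not follow the label. At arrest it was not called higher in *cdc8* than in *cdc20*, and in the early window it was called lower in *cdc8*. *CSE4* lay at 23681 and 24237 in the *cse4-353* cultures and between 317 and 524 elsewhere, and *BAR1* was well detected only in *cdc8*, at 1794 and 1769 against 69.8 to 173. *GAL1*, which reports growth on galactose, was at 27078 and 24419 in *cse4-353* during arrest and at 280 to 722 in the others, while on the first array it stood at 7783 and 17753 in *cdc20* and at 289 and 271 in *cdc8*. Array medians ran from 1019.93 to 1283.51. Some arrays stood apart from their neighbours in time. The root mean square log2 distance was 0.415 to 0.453 for *cse4-353* replicate 1 at 150, 165 and 180 min, which lie outside the windows but inside the periodogram, against a median of 0.128 over arrays. Inside a window the farthest was *cdc20* replicate 2 at 60 min (0.417), and results that change without it are named below.

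The genes mostly followed a common course in time. Outside *cse4-353*, whose arrays begin only at 90 min, most fell from the first array after release to a low and then rose again as cells arrested. The lowest array and the maximum after it were picked in each course, so the ratios below cannot be under 1 for any gene. They were not computed over all probe sets and are descriptions only. In *cdc8* the first array exceeded the lowest by a median of 7.27-fold over the members in replicate 1 and 11.0-fold in replicate 2, and the first array was the highest of the whole course for 8 and for 10 members. It was the highest for 1 and for 8 members in *cdc20*, for 0 in *cdc8 cdc20* and for 1 and 2 in *rad53-1 cdc8 cdc20*. The *cdc20* courses began at unlike times, 40 min in replicate 1 and 20 min in replicate 2. *GSY1* started near its lowest value in *cdc20* replicate 1, at 95.4 against 88.9. The later rise reached a median of 5.97-fold and 6.79-fold over the lowest array in *cdc8*, at a median time of 180 and 190 min. It was larger in *cdc8 cdc20*, with a median of 12.1-fold at a median time of 216 min and up to 48.9-fold for *TSL1*. In *cdc20* the later maximum was 4.02-fold and 5.27-fold over the lowest, and it fell on the last array, at 300 and 360 min, for 10 of 10 members in each culture. In *cdc8 cdc20* 0 of 10 members had their later maximum on the last array.

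**Figure D1:**
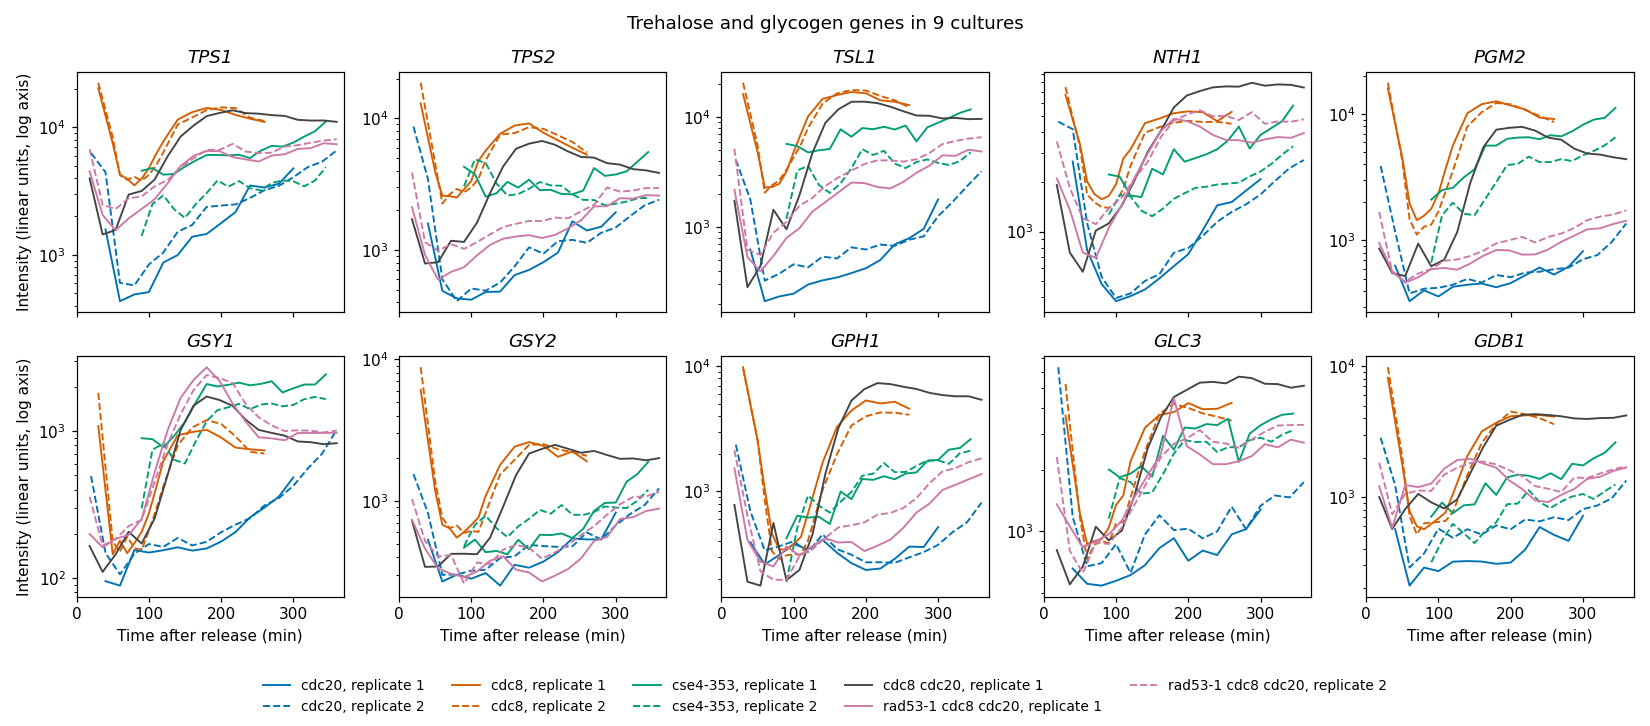
Intensity (log axis) of the 10 genes against time after release in min, 1 panel per gene and 1 line per culture, coloured by strain and dashed for replicate 2. The lines of *cdc8* and *cdc8 cdc20* rise to their later maximum near 180 to 216 min for most genes, and in *rad53-1 cdc8 cdc20* *GPH1*, *PGM2* and *GSY2* stay low at 180 min while *GSY1* peaks.

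The profiles of the members were alike within most cultures. Over the 45 pairs of members, the median Pearson correlation between log2 profiles across the arrays of a culture ranged from 0.73 to 0.96 between cultures. *TSL1*, *TPS1* and *PGM2* lay nearest to the mean profile of the 10 genes, each with a mean r of 0.97 over the 9 cultures, and *TPS2* lay farthest, with a mean of 0.77 and −0.32 in its least similar culture. The arrays of a culture share its cells and their normalization, so these correlations are descriptions only. Of the probe sets outside the list, those closest to the members' mean profile were *YPS6* (mean r of 0.96), *RNY1* (0.96), *SDS24* (0.95), YBR085C-A (0.95), *ISN1* (0.95), *APE1* (0.94), *SDP1* (0.94) and *GOR1* (0.93). *YPS6* encodes a cell-surface aspartic protease, *RNY1* a vacuolar RNase, *APE1* a vacuolar aminopeptidase and *SDP1* a MAP kinase phosphatase.

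How reserve carbohydrate genes stood in a replication-checkpoint arrest was asked first against an arrest without that checkpoint. All 10 members were higher in *cdc8* than in *cdc20* at arrest, and both *cdc8* cultures exceeded both *cdc20* cultures for each gene. Of all probe sets, 19.1% were called higher. How many of all probe sets had no overlap between cultures was not counted, here or in the comparisons below. The members' median log2 difference was 2.38, and that over all probe sets was −0.16.

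*PGM2*, the major phosphoglucomutase isoform, stood at 548 and 567 in *cdc20* and at 10642 and 10551 in *cdc8*. The replicates lay close together and the strains were 19.0-fold apart (log2 difference 4.25 ± 0.23, SE, adjusted p = 3e-05). Of the trehalose synthase complex, *TSL1*, a regulatory subunit, showed the largest difference among the members, from 644 and 712 in *cdc20* to 14792 and 15322 in *cdc8* (log2 difference 4.47 ± 0.36, adjusted p = 0.000133). *TPS1*, the trehalose 6-phosphate synthase, was already at 2773 and 2854 in *cdc20* and reached 12545 and 12970 in *cdc8* (2.18 ± 0.30, adjusted p = 0.00122). The log2 difference of *TPS2*, the trehalose 6-phosphate phosphatase, was 2.57 ± 0.22, and that of *NTH1*, the neutral trehalase that breaks trehalose down, was 2.05 ± 0.25. Genes of synthesis and of breakdown were hence higher together.

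The same held for glycogen. *GPH1*, the phosphorylase that releases glucose 1-phosphate, stood at 292 and 286 in *cdc20* against 4912 and 3984 in *cdc8*, 15.3-fold higher (log2 difference 3.93 ± 0.21, adjusted p = 2.64e-05). *GDB1*, the debranching enzyme needed for complete breakdown, differed by 2.90 ± 0.29 and *GLC3*, the branching enzyme of synthesis, by 2.05 ± 0.16. The glycogen synthase genes differed by less than *GPH1*, with 2.20 ± 0.17 for *GSY2*, which encodes the major isoform, and 1.75 ± 0.17 for *GSY1*.

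Part of this gap was there before arrest. Early in the course, 8 of the 10 genes were already higher in *cdc8* than in *cdc20* (17.0% of all probe sets were), with a median log2 difference of 1.01. *TSL1* led, with early levels of 313 and 601 in *cdc20* and 2820 and 2921 in *cdc8* (2.72 ± 0.42, adjusted p = 0.00308), followed by *TPS1* at 2.39 ± 0.37. *GSY1* (0.45 ± 0.20, adjusted p = 0.107) and *GLC3* (0.43 ± 0.21, adjusted p = 0.124) were not called. Without *cdc8* replicate 1, 5 members were called, and without the 60 min array of *cdc20* replicate 2, which lies in this window, 6 were, *NTH1* (adjusted p = 0.0816) and *GDB1* (adjusted p = 0.107) losing the call.

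The change within each culture also differed between the strains. Testing the difference of the changes, 8 members rose more in *cdc8* than in *cdc20*, against 23.1% of all probe sets, with a median of 1.47. *GPH1* rose by 2.58 ± 0.16 on the log2 scale in *cdc8* and had a change of −0.37 ± 0.16 in *cdc20*, a difference of 2.95 ± 0.23 (adjusted p = 0.000145). For *TPS1* the changes were 1.43 ± 0.15 and 1.65 ± 0.15 and their difference, −0.21 ± 0.21, was not called (adjusted p = 0.439). Its gap between the strains was 2.39 at the start and 2.18 at arrest. Without the 60 min array of *cdc20* replicate 2 the difference in change of *TPS1* was 0.02. *TPS2* was not called either, at 0.73 ± 0.30 (adjusted p = 0.0816). With the first 3 arrays of each course as the early window, 3 members were called.

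**Figure D2:**
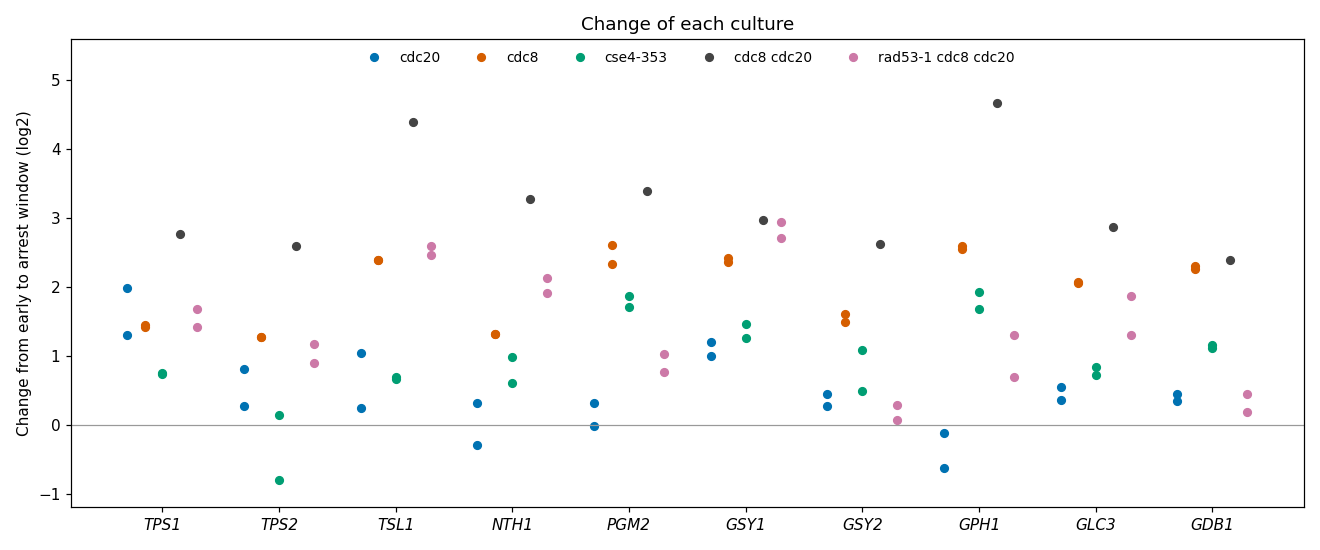
Change in log2 intensity from the early to the arrest window for the 10 genes, 1 point per culture, coloured by strain, with 0 marking no change. The point of *cdc8 cdc20* lies highest for each of the 10 genes, the *cdc20* points are at their highest for *TPS1* and *GSY1*, and those of *GSY2* stay between 0.07 and 0.29 in *rad53-1 cdc8 cdc20*.

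Within the strains, each member rose from the early to the arrest window in *cdc8* (10 of 10, against 28.9% of all probe sets) and in *cdc8 cdc20* (10 of 10, against 24.0%). In *cdc8* the largest rises on the log2 scale were those of *GPH1* (2.58 ± 0.16), *PGM2* (2.47 ± 0.12), *GSY1* (2.39 ± 0.09) and *TSL1* (2.39 ± 0.16). In *cdc20*, 5 members rose (31.7% of all probe sets did), with *TPS1* at 1.65 ± 0.15, *GSY1* at 1.10 ± 0.09, *TSL1* at 0.64 ± 0.16, *GLC3* at 0.45 ± 0.13 and *GDB1* at 0.40 ± 0.08. The rises in *cdc20* depended on where its course was read. Over the last 5 arrays 9 members were called, and without *cdc20* replicate 1 only 2 were. Without the 60 min array of replicate 2, *TSL1* (0.42, adjusted p = 0.16) and *GDB1* (0.20, adjusted p = 0.213) lost the call and 3 remained, while the first 3 arrays as the early window left 3 calls, 1 of them lower, with *GLC3* at −0.08 and *GDB1* at −0.09.

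The spindle assembly checkpoint arrest was compared with the *cdc20* arrest in the same way. All 10 members were higher in *cse4-353* as well, and again the cultures did not overlap for any gene. The share of all probe sets called higher was 17.7%, and the members' median log2 difference was 1.50 against −0.14 over all probe sets. This comparison and the previous one share the *cdc20* cultures and their window.

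*PGM2* led here, at 7815 and 4683 in *cse4-353* (log2 difference 3.44 ± 0.23, adjusted p = 7.26e-05), followed by *TSL1* at 8546 and 3819 (3.07 ± 0.36). *GSY1* followed. It stood at 252 and 266 in *cdc20* and at 2036 and 1567 in *cse4-353*, a log2 difference of 2.78 ± 0.17 (adjusted p = 4.74e-05), while its paralog *GSY2* had one of the smallest differences, 0.94 ± 0.17. The smallest was that of *TPS1*, 0.90 ± 0.30 (adjusted p = 0.0443), and its level in the *cse4-353* cultures was 7630 and 3615. The SD of *TPS1* between cultures was 0.76 in *cse4-353* and 0.03 in *cdc20*, so the pooled error may understate the spread here.

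The widest spread between replicates was that of *cse4-353*. The SD of the arrest level between cultures went up to 0.82 on the log2 scale, for *TSL1*, whereas it was at most 0.21 in *cdc8*. Replicate 1 was the higher of the pair for each member. *TSL1* already read 5708 in replicate 1 and 1188 in replicate 2 on their first arrays.

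Between the checkpoints, 7 members were higher in *cdc8* than in *cse4-353* (17.3% of all probe sets were) and 1 was lower (18.9% were). The higher ones were *GDB1* (log2 difference 1.63 ± 0.29), *TSL1* (1.40 ± 0.36), *GPH1* (1.36 ± 0.21), *TPS1* (1.28 ± 0.30), *GSY2* (1.26 ± 0.17), *TPS2* (1.24 ± 0.22) and *PGM2* (0.81 ± 0.23). *GSY1* went the other way, at −1.04 ± 0.17 (adjusted p = 0.00323), with 832 and 911 in *cdc8*. *NTH1* (0.69 ± 0.25, adjusted p = 0.0679) and *GLC3* (0.41 ± 0.16, adjusted p = 0.0783) were not called. Fitting these strains alone left 5 calls, as did leaving out either *cdc8* culture, and galactose as carbon source in *cse4-353* cannot be told apart from its arrest.

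In *cse4-353*, 9 members rose from the early to the arrest window (29.2% of all probe sets did), led by *GPH1* (1.80 ± 0.16) and *PGM2* (1.79 ± 0.12). The exception was *TPS2*, with a change of −0.33 ± 0.21 (adjusted p = 0.204). Its level was 3802 and 2336 at arrest, and without replicate 2 the change was 0.14.

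**Figure D3:**
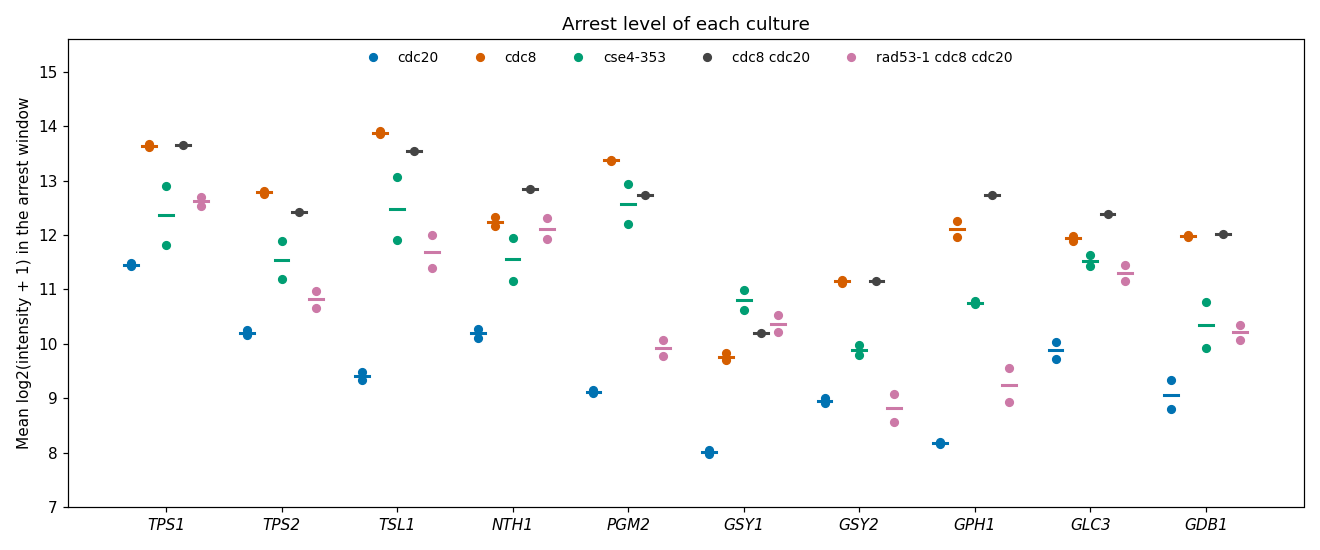
Arrest level (mean log2 intensity over the window) of the 10 genes in the 9 cultures, 1 point per culture, coloured by strain, with a short bar at the strain's mean. The *cdc20* points are lowest for 9 genes, and the *rad53-1 cdc8 cdc20* points lie below the *cdc8 cdc20* point for 9 genes, with *GSY1* as the exception.

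Loss of Cdc20 in addition to Cdc8 did not lead to a call for any member. In the *cdc8 cdc20* culture, 0 of 10 genes were called against *cdc8*, where 6.19% of all probe sets were called in either direction, and 1 member passed an unadjusted p of 0.05, *GPH1* (0.62 ± 0.25, unadjusted limma p = 0.0429, adjusted p = 0.198). The log2 differences lay between −0.64 ± 0.28 for *PGM2* and 0.62 for *GPH1*, with a median of 0.02. The strain has 1 culture and the comparison its widest errors, with a 95% interval of −0.86 to 0.87 for *TPS1*. Fitted on these strains alone, members were called in both directions, but calls over all probe sets rose as well, as given at the end. Leaving out either *cse4-353* culture gave 2 calls.

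The effect of Rad53 was read from *rad53-1 cdc8 cdc20* against *cdc8 cdc20*, which share the sampling clock and all other named alleles. At arrest 7 of the 10 members were lower in the *rad53-1* strain, against 10.8% of all probe sets, and the median log2 difference over the 10 was −1.70 against 0.01 over all probe sets. *GPH1* showed the largest difference. It stood at 6778 in the *cdc8 cdc20* culture and at 491 and 757 in the *rad53-1* cultures, a log2 difference of −3.47 ± 0.25 (adjusted p = 0.000571). *PGM2* came next, at 6792 against 876 and 1078 (−2.80 ± 0.28, adjusted p = 0.00175). The glucose 1-phosphate that Gph1 releases is the substrate of Pgm2.

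*GSY2* lay near the level of *cdc20*. Its intensity was 2280 in *cdc8 cdc20* and 381 and 542 in the *rad53-1* cultures (−2.32 ± 0.21, adjusted p = 0.00126), beside 480 and 511 in *cdc20*. *TSL1* was at 11866 against 2689 and 4093 (−1.84 ± 0.44, adjusted p = 0.0249). *GDB1* (−1.80 ± 0.35), *TPS2* (−1.61 ± 0.27) and *GLC3* (−1.09 ± 0.19) were lower too.

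The remaining members were not called. *TPS1* was at 12816 in *cdc8 cdc20* and at 5900 and 6681 in the *rad53-1* cultures (−1.03 ± 0.37, adjusted p = 0.0864), and *NTH1* at 7349 against 3877 and 5077 (−0.73 ± 0.31, adjusted p = 0.137). *GSY1* alone lay no lower, with 1179 against 1185 and 1473 (0.16 ± 0.20, adjusted p = 0.609, 95% interval −0.31 to 0.64). Over the last 5 arrays of each course 3 members were called, *GPH1*, *PGM2* and *GSY2*, and without *rad53-1 cdc8 cdc20* replicate 1 there were 4.

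Taken as changes from the early window, the difference between these strains was called for 9 members, all lower in *rad53-1 cdc8 cdc20* (12.7% of all probe sets were), with a median of −1.71. Without the 60 min array of *cdc20* replicate 2, which enters the pooled error, *TPS1* lost the call (adjusted p = 0.0645). *GPH1* rose by 4.67 ± 0.23 in *cdc8 cdc20* and by 0.99 ± 0.16 in *rad53-1 cdc8 cdc20*. The corresponding rises of *NTH1* were 3.28 ± 0.21 and 2.02 ± 0.15, and their difference, −1.26 ± 0.26, was called (adjusted p = 0.0134). *GSY1* rose by 2.98 ± 0.13 and 2.82 ± 0.09, and the difference was not called (−0.15 ± 0.16, adjusted p = 0.536).

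**Figure D4:**
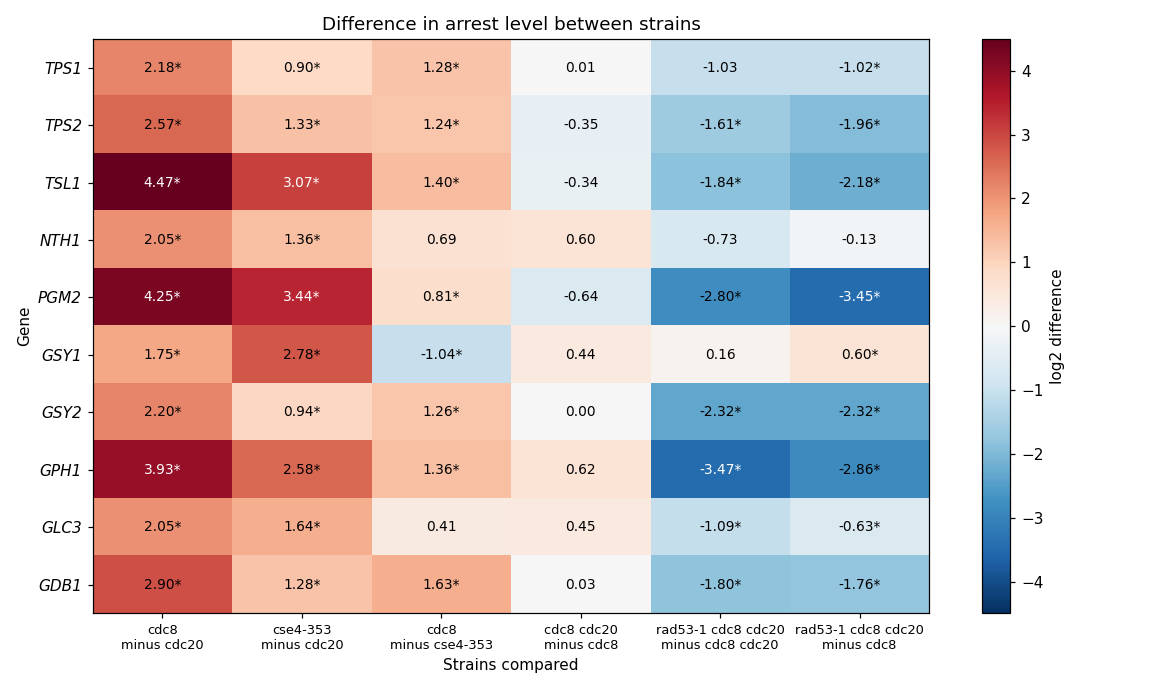
Log2 difference in arrest level for the 10 genes in the comparisons between strains, as colour and printed value, with an asterisk for an adjusted p of at most 0.05. All genes are red for *cdc8* minus *cdc20* and for *cse4-353* minus *cdc20*, and *GSY1* departs from the other genes in *rad53-1 cdc8 cdc20* minus *cdc8 cdc20* and in *cdc8* minus *cse4-353*.

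The *rad53-1* strain still differed from *cdc20*. It was higher for 8 members (18.2% of all probe sets), with a median of 1.15, led by *GSY1* (2.35 ± 0.17), *TSL1* (2.29 ± 0.36) and *NTH1* (1.92 ± 0.25). *TPS2* (0.61 ± 0.22, adjusted p = 0.0646) and *GSY2* (−0.12 ± 0.17, adjusted p = 0.594) were not called. Without *cdc20* replicate 1, or without either *rad53-1* culture, 5 members were called.

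Against the replicated *cdc8* strain in place of the single *cdc8 cdc20* culture, 8 members were lower in *rad53-1 cdc8 cdc20* (21.0% of all probe sets) and *GSY1* was higher, at 0.60 ± 0.17 (26.9% of all probe sets). *PGM2* had a difference of −3.45 ± 0.23 and *GPH1* of −2.86 ± 0.21, and *NTH1* of −0.13 ± 0.25 (adjusted p = 0.703). Both comparisons of the *rad53-1* cultures with a *cdc8* background use the same *rad53-1* arrays.

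Within *rad53-1 cdc8 cdc20* itself, 9 members rose from the early window (26.5% of all probe sets did). *GSY1* (2.82 ± 0.09), *TSL1* (2.53 ± 0.16) and *NTH1* (2.02 ± 0.15) rose most, and *GSY2* had a change of 0.18 ± 0.14 (adjusted p = 0.295). With the first 3 arrays as the early window, 5 members were called, and the change of *GPH1* was −0.01 against 0.99 ± 0.16. Without the 60 min array of *cdc20* replicate 2, *GDB1* (0.32 ± 0.08) lost the call (adjusted p = 0.0631). The courses behind these means differed in timing. *GPH1* read 394 and 536 at 180 min in the *rad53-1* cultures, when it was at 5327 in *cdc8 cdc20*, and rose to 1375 and 1837 by 360 min. *PGM2* likewise moved from 841 and 949 at 180 min to 1431 and 1731 at 360 min.

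The glycogen synthase genes parted in these data. *GSY1* and *GSY2* encode isozymes of the same reaction, and the rise of *GSY2* from the early to the arrest window was smaller than that of *GSY1* in 9 of 9 cultures. The difference between the changes, *GSY2* minus *GSY1*, was −0.75 and −0.73 in *cdc20*, −0.75 and −0.93 in *cdc8*, −0.17 and −0.98 in *cse4-353*, −0.35 in *cdc8 cdc20* and −2.63 and −2.66 in *rad53-1 cdc8 cdc20*. The *rad53-1* cultures had the most negative values. The mean over the cultures was −1.11 (SD 0.91, n = 9), and a two-sided exact permutation test by sign flips gave p = 0.00391, the smallest it can give. The test took the 9 cultures as independent, though most are pairs from 1 strain, so p may be too small. The pair was also singled out with these data already known, so p is a description only. Cross-hybridization between the paralogs was not tested.

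In time, *GSY1* rose to 2725 and 2410 at 180 min in the *rad53-1* cultures and to 1722 in *cdc8 cdc20* at the same time, which was its maximum in each. At that time *GSY2* was at 313 and 466 in the *rad53-1* cultures and at 2160 in *cdc8 cdc20*. The correlation between the profiles of the pair was −0.06 and 0.16 in the *rad53-1* cultures, and it ranged from 0.59 to 0.91 in the other 7 cultures.

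Ordered by arrest level, *cdc20* was lowest for 9 of the 10 genes, and for *GSY2* the lowest was *rad53-1 cdc8 cdc20*, which was not called against *cdc20*. The highest level was that of *cdc8 cdc20* for 6 genes, of *cdc8* for 3 (*TPS2*, *TSL1* and *PGM2*) and of *cse4-353* for *GSY1*. The strains at the top of the order, *cdc8* and *cdc8 cdc20*, differed by no called amount for any of the genes in the fit of all strains. With 1 *cdc8 cdc20* culture and an error that pools the wide spread of *cse4-353*, the order of these strains is not settled. Those in the middle, *rad53-1 cdc8 cdc20* and *cse4-353*, changed places with the gene. The *cse4-353* cultures both lay above both *rad53-1* cultures for *PGM2*, *TPS2*, *GPH1*, *GSY1* and *GSY2*, and the strains overlapped or were reversed for the others.

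Whether the members oscillated during the arrests was examined with the Lomb-Scargle periodogram on the first 13 arrays, at periods of 90 to 160 min, with a lenient p of at most 0.5 in both cultures. In *cdc20* 0 of 10 members passed, against 9.10% of all probe sets. In *cdc8* 9 passed, all but *GSY2*, against 68.5% of all probe sets, so a pass was common there. In *cse4-353* *TPS2* and *GLC3* passed (16.1% of all probe sets), and in *rad53-1 cdc8 cdc20* *GDB1* passed (26.4%). The *cdc8* courses of the members fell and rose once within these 13 arrays. With a linear trend removed first, the counts were 0 in *cdc20*, 10 in *cdc8*, 7 in *cse4-353* and 4 in *rad53-1 cdc8 cdc20*, against 22.1%, 73.4%, 36.5% and 63.1% of all probe sets. At a p of at most 0.1, 4 members passed in *cdc8* and 0 in each of *cse4-353* and *rad53-1 cdc8 cdc20*. The shares of all probe sets were 19.7%, 0.927% and 2.08%, respectively.

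Other genes of the pathways were read from lists set by name. Of the other trehalose genes, *TPS3*, *NTH2* and *ATH1*, 3 of 3 were higher in *cdc8* than in *cdc20*, with log2 differences of 1.42, 0.97 and 1.75. *TPS3* encodes a further subunit of the synthase complex, *NTH2* a second neutral trehalase and *ATH1* the acid trehalase. Of 13 genes for glycogen initiation, its phosphatase regulators, its kinase and related proteins, 8 were higher and 2 were lower, against 19.1% and 33.0% of all probe sets. The largest differences there were those of *IGD1*, an inhibitor of the debranching enzyme (2.24), *SGA1*, a glucoamylase (1.58), *GAC1*, a targeting subunit of the Glc7 phosphatase (1.55), and *GLG2*, a glycogenin (1.52).

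Upstream of both reserves, 4 of 6 genes of glucose phosphorylation and UDP-glucose supply were higher in *cdc8* than in *cdc20* (19.1% of all probe sets were). They were *HXK1* (4.03) and *GLK1* (1.24), which encode hexokinase 1 and glucokinase, *EMI2* (2.24), which encodes a glucokinase paralog, and *UGP1* (1.56), which encodes UDP-glucose pyrophosphorylase. *UGP1* too was lower in the *rad53-1* strain. It was at 13949 in *cdc8 cdc20* and at 5837 and 6759 in the *rad53-1* cultures (−1.15 ± 0.16, adjusted p = 0.00362). In *cse4-353* it was not called against *cdc20* (0.17 ± 0.13, adjusted p = 0.316).

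General stress genes were also higher at arrest in *cdc8* and *cse4-353*. Of 18 genes commonly induced through Msn2 and Msn4, 18 were higher in *cdc8* than in *cdc20* (19.1% of all probe sets were), with a median log2 difference of 2.78. In *cse4-353*, 17 were higher than in *cdc20* (17.7% of all probe sets were), with a median of 1.88. The largest in *cdc8* were *MSC1* (4.26), *SOL4* (4.11), *GAD1* (3.98) and *TFS1* (3.98). Between *rad53-1 cdc8 cdc20* and *cdc8 cdc20*, 8 of the 18 were lower (10.8% of all probe sets were), with a median of −1.22. Among them were *SOL4* (−2.95), *GAD1* (−2.62), *TFS1* (−2.33) and *OM45* (−2.04). *HSP12*, a small membrane heat shock protein gene of this list, was not called there (−0.58 ± 0.22, adjusted p = 0.0929). From the early to the arrest window in *cdc20*, however, 10 of the 18 fell and 5 rose, with a median change of −0.44. Of all probe sets, 31.3% fell and 31.7% rose in that strain. There 0 members were called lower, and their median change was 0.42. This depended on the early window. With the first 3 arrays in its place, the changes of *TPS2*, *NTH1*, *PGM2*, *GSY2*, *GLC3* and *GDB1* turned negative, and a member was called lower, as given above. The stress genes were not read from those arrays. Of 8 ribosome and ribosome-assembly genes, 5 were lower in *cdc8* than in *cdc20* (33.0% of all probe sets were) and 4 were higher in *rad53-1 cdc8 cdc20* than in *cdc8 cdc20* (11.3% were). The part of a general stress or growth-rate response in the members' differences was not tested.

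In the comparison of *rad53-1 cdc8 cdc20* with *cdc8 cdc20*, 10.8% of all probe sets were lower. Of the other trehalose genes, 2 of 3 were lower, *NTH2* (−1.44) and *ATH1* (−0.81). Of the other glycogen genes 3 of 13 were lower, *IGD1* (−1.18), *GIP2* (−0.83) and *GLG2* (−0.75), and of the hexose phosphate genes 3 of 6, *HXK1* (−1.22), *UGP1* (−1.15) and *EMI2* (−1.08). Of the galactose genes 1 of 6 was higher and 1 was lower, with a median of 0.10, where 11.3% of all probe sets were higher.

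In *cse4-353* against *cdc20*, 6 of 6 galactose genes were higher, with a median of 5.53. Of the hexose phosphate genes 4 were higher, with *HXK1* at 4.28 and *EMI2* at 2.53, and *PGM1*, the minor phosphoglucomutase, was lower at −0.89 while *PGM2* was higher at 3.44. Among the other glycogen genes 7 of 13 were higher, with *GAC1* (2.16), *IGD1* (2.06) and *PCL10* (2.03), a cyclin of the glycogen synthase kinase Pho85, at the top, and 1 was lower, against 17.7% and 27.2% of all probe sets. *PGM2* also serves galactose use, and the parts of medium and arrest in its difference cannot be told apart.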

How the data were processed

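RNA of each time point was hybridised to the Affymetrix Yeast Genome 2.0 array. The deposited values are linear intensities, which the authors made with affy 1.32.1 (invariant-set normalization, no background correction, perfect-match probes only, Li-Wong model) after masking fission yeast probes and together with arrays that were not analysed here. A joint normalization can draw arrays of different studies towards one scale. Of 5900 probe sets, 184 controls were left out; 5498 of the 5716 tested had a gene symbol. Intensities ran from 39.5 to 40037, so the lowest genes rest on weak signal and have compressed fold changes, and precision is limited by the number of arrays and cultures. Each signal averages the cells of a culture, so the share of cells with a transcript and the amount per cell cannot be told apart.

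From log2(intensity + 1), window means per culture were fitted for 5 strains in limma 3.58.1 (R 4.3.3), with 4 residual degrees of freedom, and Benjamini-Hochberg adjustment over all 5716 probe sets. Periodograms used Python 3.11.15, numpy 2.4.6 and pandas 2.3.3 on linear intensities at 8 periods with 9.31 independent frequencies. Figures were drawn with matplotlib 3.10.9. The fit was tested on simulated data with 200 changed probe sets. Depending on the comparison, it recovered 54.5% to 78.5% of those changed by 1 on the log2 scale and 92% to 97.5% of those changed by 2. Of its calls, 2.04% to 7.28% were false. The simulated noise was equal in all strains, whereas the members' median SD at arrest was 0.04 in *cdc8* and 0.51 in *cse4-353*, so recovery in the data may differ.

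Members and gene lists were chosen with earlier results of these data known. All 10 members are named, and of each other list up to 4 called genes with the largest absolute difference, apart from *HSP12* and *UGP1* in *cse4-353*, which were added after their values were seen, as were the comparisons of the *rad53-1* strain with *cdc8* and *cdc20* and those of changes between strains. The genes most like the members are the 8 with the highest mean correlation over cultures. Replicate cultures were independent populations of 1 strain each. Alternatives covered windows, normalization, pseudocount (32 for 1), a filter on the dimmest 20% of probe sets, the strains fitted, a replicate block and each culture left out. No array column was left unmapped, and promoter or protein sequences were not used here.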

Additional observations from a re-analysis of the deposited data

Results flagged for a closer look

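The change from the early to the arrest window differed between strains by the test of the difference itself (limma, 9 cultures, adjusted over all probe sets) for 9 members between *rad53-1 cdc8 cdc20* and *cdc8 cdc20* and for 8 between *cdc8* and *cdc20*. In the first pair the rise was smaller in the *rad53-1* strain, with log2 differences of −3.68 for *GPH1*, −2.49 for *PGM2*, −2.45 for *GSY2*, −2.07 for *GDB1*, −1.86 for *TSL1*, −1.56 for *TPS2*, −1.28 for *GLC3*, −1.26 for *NTH1* and −1.21 for *TPS1*. Adjusted p-values ran from 0.00035 for *GDB1* to 0.0207 for *TPS2*, and both *rad53-1* cultures were set against 1 *cdc8 cdc20* culture.

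In the second pair the rise was larger in *cdc8*, with differences of 2.95 for *GPH1*, 2.31 for *PGM2*, 1.88 for *GDB1*, 1.75 for *TSL1*, 1.62 for *GLC3*, 1.31 for *NTH1*, 1.29 for *GSY1* and 1.19 for *GSY2*. Adjusted p-values ran from 8.18e-05 for *GDB1* to 0.00243 for *GSY2*. The *cdc20* cultures began from galactose medium and the *cdc8* cultures had *GAL1* near its floor from the first array, so strain and medium history cannot be told apart in this pair. A change of temperature at the release of the *cdc8* cells cannot be told apart from them either.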

How the results depend on the processing

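Of the values for single genes under the alternatives, 2495 kept direction and side of the threshold, 59 gained a call, 110 lost it and 31 changed sign, 3 of them values called as reported and 0 of them called under the alternative. Of counts and summaries, 282 stayed within 1.5 times the given one and 33 did not; the cause was not tested, except that fewer samples enter where a strain or culture is left out. Members called were 5 for *cdc8* minus *cse4-353* and 6 for *cdc8 cdc20* minus *cdc8* with only the strains compared, 3 for *rad53-1 cdc8 cdc20* minus *cdc8 cdc20* over the last 5 arrays, and for the change in *cdc20* 9 over the last 5 arrays, 3 from the first 3 arrays 9 from the late part of the early window and 3 without the 60 min array of *cdc20* replicate 2, both chosen after seeing the data. From the first 3 arrays the changes in *cdc8* and *rad53-1 cdc8 cdc20* gave 5 each and the difference in change of *cdc8* minus *cdc20* gave 3. Passes in the periodogram were 5 (all time points) and 4 (p at most 0.1) in *cdc8*, 1 (log2), 0 (all time points), 7 (trend removed), 1 (periods from 140 min) and 0 (p at most 0.1) in *cse4-353*, and 0, 4 and 0 (all time points, trend removed, p at most 0.1) in *rad53-1 cdc8 cdc20*. Leaving out each culture gave 10 to 10 calls for *cdc8* minus *cdc20*, 8 to 10 for *cse4-353* minus *cdc20*, 5 to 10 for *cdc8* minus *cse4-353*, 4 to 9 for *rad53-1 cdc8 cdc20* minus *cdc8 cdc20* (4 without *rad53-1* replicate 1), 0 to 2 for *cdc8 cdc20* minus *cdc8*, 2 to 7 for the change in *cdc20* (2 without replicate 1), 10 in *cdc8* and in *cdc8 cdc20*, 9 to 10 in *cse4-353*, 8 to 9 in *rad53-1 cdc8 cdc20*, 5 to 9 for the early level (5 without *cdc8* replicate 1), 6 to 9 for *rad53-1 cdc8 cdc20* minus *cdc8*, 5 to 9 for it minus *cdc20*, 6 to 9 and 8 to 9 for the differences in change, −1.22 to −0.912 for *GSY2* minus *GSY1*, and 0 to 1 (*cdc20*, 1 without replicate 2), 9 to 10 (*cdc8*), 2 to 4 (*cse4-353*, 4 without replicate 2) and 1 to 2 (*rad53-1*, 2 without replicate 2) periodogram passes.

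Of the sign changes, those of *GLC3* and *GDB1* in *cdc20* and of *GPH1* in *rad53-1 cdc8 cdc20*, all with the first 3 arrays, were of called rises (0.448, 0.401 and 0.994). In full they were for *cdc8 cdc20* minus *cdc8* *GDB1* −0.00384 (180 to 260 min in each strain), *TPS1* −0.155, *GSY1* −0.0297 and *GSY2* −0.182 (last 5 arrays), *TPS1* −0.0471, *GSY2* −0.0293 and *GDB1* −0.0127 (quantile normalization), *TPS1* −0.0942 (replicate block) and with a culture left out *TPS1* −0.0173 to 0.0309 and *GSY2* −0.0223 to 0.0307. For the change in *cdc20* they were *NTH1* −0.241 (180 to 260 min) , −0.00265 (pseudocount 32) and −0.0604 (without the 60 min array), *GPH1* 0.125 (last 5 arrays), *TPS2* −0.189, *NTH1* −0.512, *PGM2* −0.382, *GSY2* −0.0305, *GLC3* −0.0813 and *GDB1* −0.0891 (first 3 arrays) and with a culture left out *NTH1* −0.294 to 0.308 and *PGM2* −0.0132 to 0.322. Elsewhere they were with a culture left out *TPS2* −0.806 to 0.141 in *cse4-353*, *GSY2* −0.056 (180 to 260 min) and −0.249 and *GPH1* −0.0134 (first 3 arrays) in *rad53-1 cdc8 cdc20*, with a culture left out *NTH1* −0.324 to 0.0647 for it minus *cdc8* and *GSY2* −0.379 to 0.131 for it minus *cdc20*, *GSY2* 0.369 for the latter (last 5 arrays) and with a culture left out *TPS1* −0.557 to 0.134 for the difference in change of *cdc8* minus *cdc20* (0.0226 without the 60 min array). Replicate numbers did not pair the cultures (deviations of same-numbered cultures correlated from −0.299 to 0.211 over 6 pairs of strains), and the replicate block gave 9 calls for *cse4-353* minus *cdc20*, 6 for *rad53-1 cdc8 cdc20* minus *cdc8 cdc20*, 7 for the change in *cdc20* and 7 for the early level. Over all probe sets, fitting only the strains compared gave 1265 calls in place of 2571 for *cse4-353* minus *cdc20*, 1052 in place of 2068 for *cdc8* minus *cse4-353*, 2268 in place of 1261 for *rad53-1 cdc8 cdc20* minus *cdc8 cdc20* and 1650 in place of 354 for *cdc8 cdc20* minus *cdc8*, and the replicate block gave 194 for the last.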
